A study of Rattus norvegicus with 94 samples.

Results

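The comparison described here set the livers of 3 male SD rats killed 24 h after a single dose of sodium valproate (VPA) against those of 3 killed 4 h after the same dose. These 6 arrays of 1 animal each were chosen by their labels from 94 arrays of a study of rat liver after VPA, di(2-ethylhexyl) phthalate (DEHP) or clofibrate. VPA was given at 2000 mg/kg in distilled water, and the labels name no genotype, age or hour of dosing. Vehicle rats of the VPA set had received distilled water and were killed at 48 or 168 h (n = 5 at each time), so no vehicle liver was matched in time to either group. Livers 48 h and 168 h after the same VPA dose (n = 4 at each time) entered the fits only, where they helped to set the spread and the filter. Of the other compounds, the groups compared were those 24 h and 4 h after DEHP at 20 g/kg in distilled water and 24 h and 4 h after clofibrate at 1000 mg/kg in 0.9% saline (n = 3 in each). Treated and vehicle livers of both compounds at 48 h and 168 h entered the fit of those comparisons, which held 76 individual arrays in 18 groups. RNA was measured on Affymetrix rat arrays with 8799 probe sets, and the levels below are MAS 5.0 signals, a linear brightness scaled by the authors to the same mean on each array.

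Valproate is a branched short-chain fatty acid used against epilepsy. In liver cells it is bound to coenzyme A and oxidised in mitochondria in competition with ordinary fatty acids, and it also inhibits histone deacetylases. Fatty acids and many drugs of acidic character activate the nuclear receptor PPARα in rodent liver, whose target genes encode the enzymes that oxidise fatty acids in mitochondria and peroxisomes. The question of the comparison is which transcripts were still climbing or had newly changed at 24 h and which were at their peak at 4 h.

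The median signal per array was 328 to 351 at 24 h and 346 to 417 at 4 h, and 41.3 to 42.6% of probe sets at 24 h and 42.6 to 46.0% at 4 h reached a signal of 500. The 3'/5' log2 ratio of control transcripts, a measure of RNA integrity, was 0.27 ± 0.10 at 24 h and 0.33 ± 0.16 at 4 h (SD, n = 3 each). Hepatocyte markers were strong at both times. The 15 tested hepatocyte markers summed to signals of 436279 to 484778 at 24 h and 527064 to 649275 at 4 h, and 3 of them (Apoa2, Apoh and Fgb) were lower at 24 h. Over the fitted probe sets, replicate 2 of the 4 h group stood apart. The correlation of replicates 2 and 3 at 4 h was 0.939, while replicate 3 had a correlation of 0.951 with replicate 1 at 24 h. Replicate 2 at 24 h shared a scan day with replicates 1 and 3 at 4 h, and the other 2 arrays at 24 h were scanned in a later month. With 3 arrays at each time, precision is limited throughout. In bulk liver, fewer cells of a type and less RNA per cell cannot be told apart.

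At 24 h against 4 h, transcripts of fatty acid thioesterases and of the enzymes of fatty acid oxidation were prominent among the rises. Cyp7a1 of bile acid synthesis, uptake transporters of bile acids and organic anions, several male-specific enzymes and several plasma proteins were among the falls. Of 4269 probe sets tested, 505 (11.8%) differed at an adjusted p under 0.05 (limma, Benjamini-Hochberg). Of these 295 (6.91%) were higher at 24 h and 210 (4.92%) lower, while the median difference over all probe sets was -0.10 on the log2 scale. At least a 2-fold difference was reached by 99 of the higher and 47 of the lower ones. The 6 arrays did not overlap between the times for 289 of the 295 and 190 of the 210. Among all 4269 probe sets, 643 were higher and 759 lower at 24 h without overlap. Calls and overlap come from the same arrays, so the overlap counts are no separate evidence. With scan day as a block 208 probe sets were called, of which 193 were among the 505. The shared scan day held 1 array of 24 h and 2 of 4 h, and 64 probe sets were called within it. The spread in that fit came from all 13 VPA arrays of the day, so the lone 24 h array is assumed to vary like the other groups. The count was 243 without replicate 3 at 24 h and 306 without replicate 2 at 4 h.

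The position of both times relative to vehicle livers was described with the equal-weight mean of the 48 h and 168 h vehicle groups, taking less than a 1.5-fold difference as near. Of the 295 higher probe sets 152 were newly higher, near the vehicle level at 4 h and above it at 24 h. Another 35 were still rising, being above it at 4 h already, and 18 had returned from a low at 4 h. Of the 210 lower probe sets 121 were newly lower, 10 were still falling from a level below vehicle at 4 h, and 24 had returned from a peak at 4 h. A further 87 higher and 51 lower ones stayed near the vehicle level at both times. New changes were more numerous than returns from an early peak or low. These places are descriptions without a test and shared the 10 vehicle livers.

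**Figure D1:**
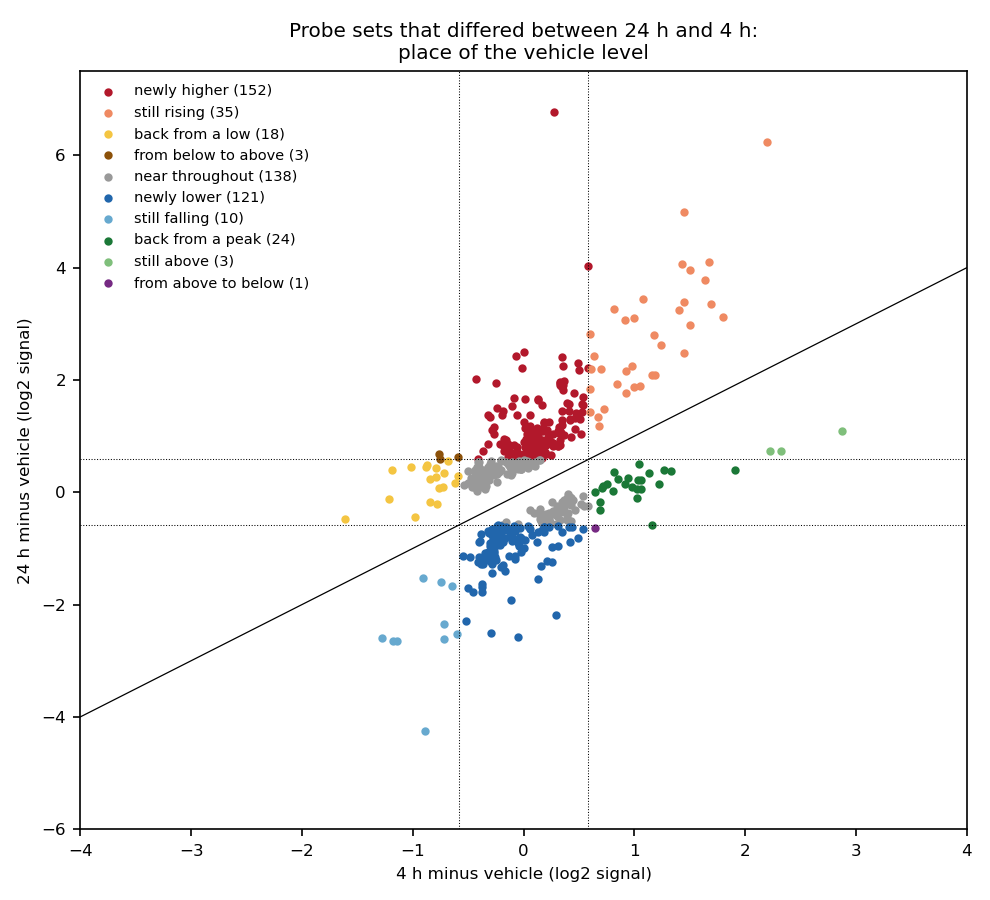
Each point is 1 of the 505 probe sets that differed between 24 h and 4 h after valproate. The x axis is the 4 h mean minus the vehicle mean and the y axis the 24 h mean minus the vehicle mean, both in log2 signal. Dotted lines mark 1.5-fold, and the solid line marks equal levels at both times. The 152 newly higher and 121 newly lower probe sets lie between the vertical dotted lines.

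The largest rise was that of Acot1, the cytosolic acyl-CoA thioesterase that splits long-chain acyl-CoA into fatty acid and coenzyme A. Its signals were 18179, 16001 and 15454 at 24 h, against 98.4, 208 and 198 at 4 h and 15.1 to 163 (median 50.1) in the 10 vehicle livers. The groups were far apart, and at 4 h the signal was still at or near the floor of 150 used in the fit. The difference was at least 90.0-fold (log2 6.49 ± 0.18 SE, adjusted p = 1.35e-17). Acot2, its mitochondrial relative, had 10306, 10252 and 8282 at 24 h, against 811, 897 and 766 at 4 h and 141 to 454 in vehicle livers. All 3 livers at 4 h thus lay above every vehicle liver already, and Acot2 climbed a further 11.6-fold (log2 3.54 ± 0.31, adjusted p = 9.06e-08). Another called probe set of Acot2, less bright, rose by 2.45 on the log2 scale. These are close paralogs, and whether their probes share signal was not tested.

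Acot1 and Acot2 are neighbours on rat chromosome 6, with 24434 bases between their starts in the RefSeq annotation of build GRCr8. Their promoter windows are shown because these neighbours gave the largest rises at different levels at 4 h. Each window runs from 250 bases before the gene's start to 50 after it, on the plus strand, and capitals mark CCAAT boxes, searched as CCAAT on both strands. The window of Acot1 (chr6:109367024-109367323) holds 2 of them and that of Acot2 (chr6:109342590-109342889) 1.
Acot1: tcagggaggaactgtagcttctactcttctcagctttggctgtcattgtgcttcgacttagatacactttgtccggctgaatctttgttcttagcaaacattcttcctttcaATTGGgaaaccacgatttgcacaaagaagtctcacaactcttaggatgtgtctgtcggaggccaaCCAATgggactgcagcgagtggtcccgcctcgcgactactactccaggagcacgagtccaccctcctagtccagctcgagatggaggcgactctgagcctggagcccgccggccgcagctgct
Acot2: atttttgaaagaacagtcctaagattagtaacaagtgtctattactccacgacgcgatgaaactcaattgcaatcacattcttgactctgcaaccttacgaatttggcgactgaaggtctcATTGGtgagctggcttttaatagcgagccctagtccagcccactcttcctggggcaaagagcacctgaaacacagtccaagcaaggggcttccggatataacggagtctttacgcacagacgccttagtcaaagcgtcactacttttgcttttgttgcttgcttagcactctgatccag
Of 27457 RefSeq promoter windows of this length 37.7% hold a CCAAT box. The paired hexamer through which PPARα is known to bind DNA was searched as AGGNCA, 1 base, AGGNCA on both strands. It was found in neither window, in 0 of the 18 windows found for raised genes of the fatty acid lists described next, and in 113 (0.412%) of all windows. These windows cover only the start of each gene.

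**Figure D2:**
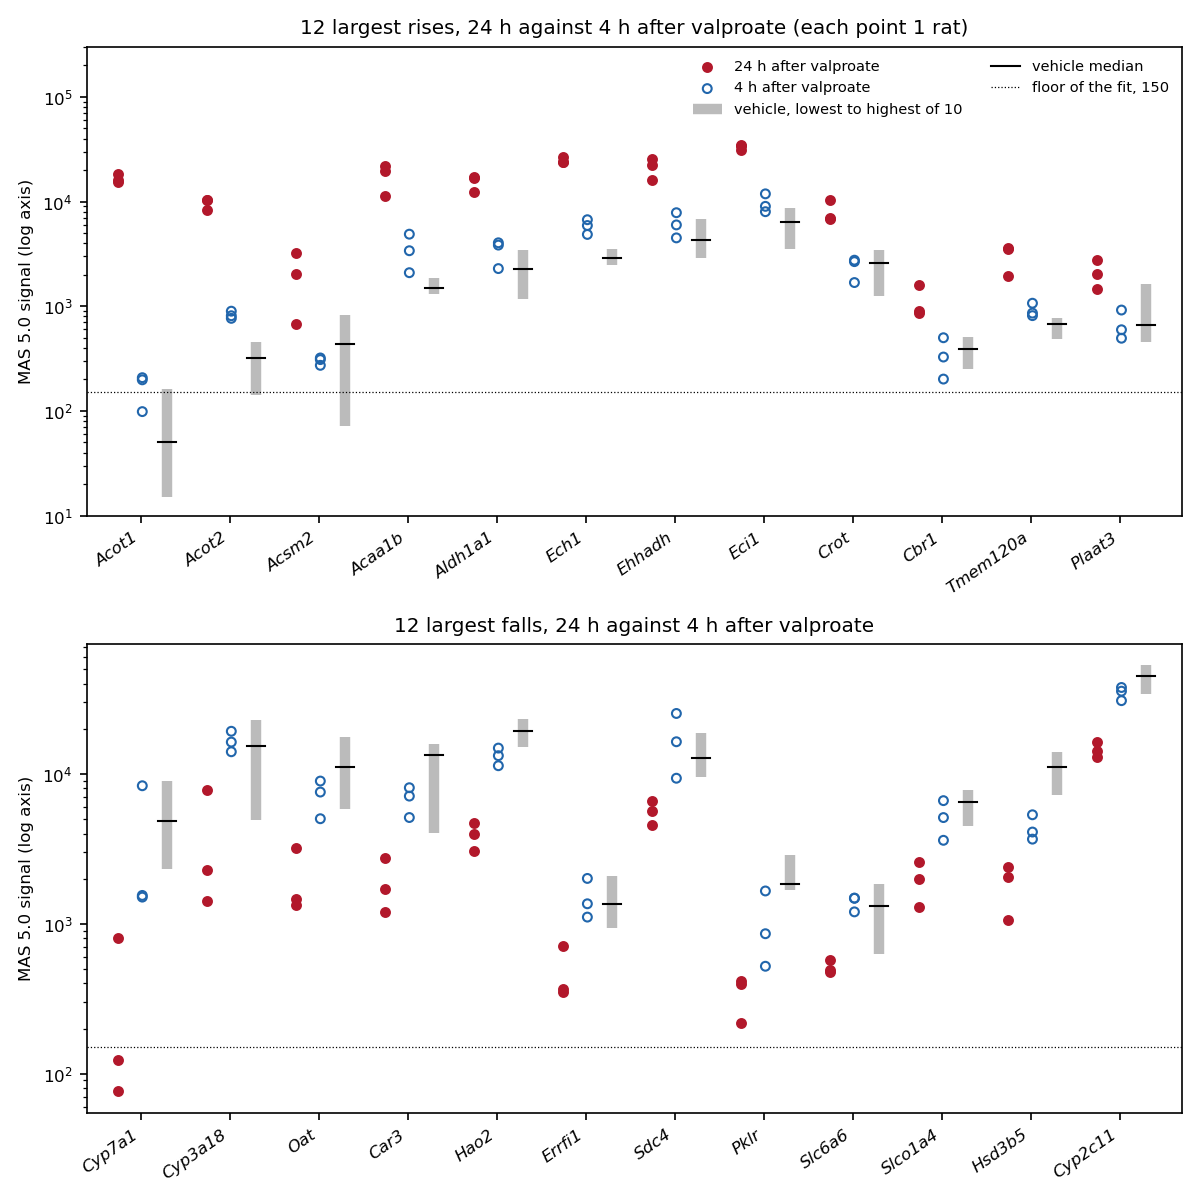
MAS 5.0 signal (log axis) of the 12 largest rises (upper panel) and 12 largest falls (lower panel) at 24 h against 4 h. Filled points are single livers 24 h after valproate, open points single livers 4 h after it, and grey bars span the 10 vehicle livers with their median. Only genes without overlap between the times could be chosen. Acot1 shows the widest gap.

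Peroxisomal beta-oxidation shortens very long and branched fatty acids. Of 18 tested genes of the peroxisomal list 8 rose and 0 fell, beside 6.05% of all 2578 tested genes that were higher and 5.35% that were lower when the brightest probe set was taken per gene. For 24 listed genes a probe set other than the brightest had a call that the brightest did not share, with a difference of the other sign for 4 of them. The peroxisomal list's median log2 difference was 0.20, against -0.11 for all genes. Acaa1b, the peroxisomal thiolase, had 21750, 19502 and 11337 at 24 h, against 4881, 2091 and 3391 at 4 h. Every 24 h liver was above every 4 h liver, and all were above the vehicle range of 1322 to 1881. Its rise was 5.18-fold (adjusted p = 2.27e-06).

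Ehhadh, the peroxisomal bifunctional enzyme, had 25470, 22486 and 16130 at 24 h, against 5984, 4499 and 7826 at 4 h. Of the 4 h livers 2 were inside the vehicle range (2920 to 6779) and 1 just above it, while all 24 h livers were far above. It rose 3.53-fold (adjusted p = 2.16e-05). Ech1, an isomerase of unsaturated acyl-CoA, had 23995, 23957 and 26708 at 24 h, against 5906, 4854 and 6708 at 4 h. The 24 h values lay close together and clear of the 4 h ones, a 4.31-fold rise (adjusted p = 1.04e-08).

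Crot, which makes acylcarnitines for export from peroxisomes, had 10436, 6769 and 6976 at 24 h, against 2668, 1684 and 2754 at 4 h (3.42-fold, adjusted p = 0.00142). At 4 h it was inside the vehicle range of 1242 to 3428, so its rise was new at 24 h. Pex11a, which acts in peroxisome division, had 4283, 3962 and 5454 at 24 h, against 1980, 1410 and 2160 at 4 h and 373 to 676 in vehicle livers. It was well above vehicle at 4 h and rose a further 2.48-fold (adjusted p = 0.000213). Abcd3, a peroxisomal membrane transporter of acyl-CoA, Decr2, a reductase of unsaturated acyl-CoA, and Hsd17b4, the second bifunctional enzyme, also rose, with log2 differences of 1.06, 1.19 and 0.57. Hsd17b4 had 9162, 7094 and 10134 at 4 h, all under its vehicle range of 10407 to 13477, and it lost its call without replicate 2 at 4 h (adjusted p = 0.121). Other peroxisomal genes were not called. Cat, the peroxisomal catalase, had a log2 difference of -0.56 and Hacl1, which acts in alpha-oxidation, one of -0.31.

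Mitochondrial beta-oxidation, the main path of fatty acid breakdown, had the highest median difference of the 27 gene lists (0.56 on the log2 scale). Of its 20 tested genes 10 rose and 1 fell, and 17 had a positive difference. Their summed signals were 205397 to 207545 at 24 h, against 131367 to 134919 at 4 h, so the groups were far apart and each was narrow. Eci1, the mitochondrial enoyl-CoA isomerase, had 30843, 34539 and 33785 at 24 h, against 9005, 8004 and 11852 at 4 h. All 4 h livers were above its vehicle median of 6337, and it rose 3.48-fold (adjusted p = 2.16e-05), with 2 of its 3 tested probe sets called.

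Decr1, the mitochondrial dienoyl-CoA reductase, had 13920, 12008 and 13614 at 24 h, against 4750, 6033 and 5318 at 4 h. Of the 4 h livers 2 were under the vehicle range (5502 to 8619), and it rose 2.46-fold (adjusted p = 4.26e-06). Hadhb, the thiolase subunit of the trifunctional protein, had 10391, 12521 and 12864 at 24 h, against 5492, 6168 and 6084 at 4 h (2.01-fold, adjusted p = 9.72e-05). Hadha, its partner subunit, rose by 0.65 on the log2 scale. The acyl-CoA dehydrogenases Acadvl and Acadl, the carnitine enzyme Cpt2, the carrier Slc25a20 and the thiolases Acaa2 and Acat1 rose by 0.53 to 0.92.

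Cpt1a, the carnitine palmitoyltransferase of the outer mitochondrial membrane, was not called. It had 6345, 5537 and 8970 at 24 h and 5579, 6389 and 6518 at 4 h, a log2 difference of 0.15 with a 95% interval of -0.68 to 0.97. Medium-chain Acadm had a difference of 0.15. Ivd, an enzyme of leucine breakdown in the same list, fell by 0.45 (adjusted p = 0.0384).

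Among thioesterases and enzymes of omega-hydroxylation, binding and activation, 5 of 24 genes rose and 1 fell, with a median of 0.06. Acot7, another acyl-CoA thioesterase, rose on 2 of its 3 tested probe sets, of which the brightest had 2803, 4805 and 3448 at 24 h, against 1194, 1193 and 1132 at 4 h (adjusted p = 0.00429). On the other one it fell by 0.59 (adjusted p = 0.0229). Cyp4a1, the fatty acid omega-hydroxylase, had 29132, 31952 and 31828 at 24 h, against 17649, 9130 and 21732 at 4 h and 4156 to 7819 in vehicle livers. It was already above every vehicle liver at 4 h and rose 2.04-fold (adjusted p = 0.00936). That call was lost without replicate 2 at 4 h (adjusted p = 0.0776) and with scan day as a block (0.0666). Another called probe set of Cyp4a1, less bright, rose by 2.15 on the log2 scale, against 1.03 on this one. The transporter and acyl-CoA synthetase Slc27a2 rose by 0.69, and Cyp4f1, another fatty acid hydroxylase, fell by 0.77. Fabp1, Dbi and Acsl1 had differences of -0.03, 0.02 and 0.08, none called. With scan day as a block 7 peroxisomal, 9 mitochondrial and 4 thioesterase-list genes remained higher by count. Leaving out any 1 of the 6 arrays gave 7 to 8, 9 to 10 and 5 to 6.

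Pdk4, the kinase that switches off pyruvate dehydrogenase and spares glucose when fat is burned, was high at both times. Its signals were 9869, 4702 and 4359 at 24 h and 4700, 7766 and 6838 at 4 h, against 324 to 1003 in vehicle livers. The times overlapped, and every treated liver was far above every vehicle liver. The log2 difference between the times was -0.10 with a 95% interval of -0.96 to 0.75 and was not called. Pdk1, Pdk2 and the phosphatase Pdp2 had differences of -0.17, 0.01 and -0.39, none called. Pdhb and Dlat, subunits of the complex, differed by -0.18 and 0.21, also not called. Pdha1, another subunit, rose by 0.49 (adjusted p = 0.0232), a call lost with scan day as a block (0.193). Across the array 91 probe sets were at least 2-fold above the vehicle mean at both times, of which 71 were not called between the times, 19 were higher at 24 h and 1 was lower. For the side below vehicle the numbers were 29, 26, 0 and 3. Examples among those not called, chosen after their values were seen, were Sptan1, a spectrin, with 1592, 2082 and 1486 at 24 h, 1634, 1255 and 1627 at 4 h and at most 592 in vehicle livers, and, on the low side, Fmo1, a flavin monooxygenase.

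The 12 largest rises also included enzymes of aldehyde, acyl and carbonyl metabolism. Aldh1a1, a retinaldehyde dehydrogenase, had 12454, 16834 and 17091 at 24 h, against 2290, 3838 and 4037 at 4 h. At 4 h 2 of the 3 livers were already above the vehicle range (1176 to 3435), and it rose 4.66-fold (adjusted p = 0.000301). Cbr1, a carbonyl reductase, had 868, 901 and 1589 at 24 h, against 500, 201 and 327 at 4 h (3.36-fold, adjusted p = 0.000978). Acsm2, a medium-chain acyl-CoA synthetase, had 677, 2036 and 3242 at 24 h, against 309, 272 and 320 at 4 h. Its 24 h livers spread widely, and its call was lost without replicate 3 at 24 h (adjusted p = 0.0829). Tmem120a rose by 1.68 and Plaat3, a phospholipase, by 1.65 on the log2 scale. For Plaat3 1 of 2 probe sets was called, and that call was lost with scan day as a block (adjusted p = 0.144).

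Of 16 inducible phase I enzymes 3 rose and 2 fell. On probe sets other than their brightest, Cyp1a2 and Cyp3a23-3a1 also fell, by 0.88 and 0.72. Cyp2b2, the phenobarbital-inducible P450, had 37811, 49495 and 48784 at 24 h, against 27227, 17293 and 10952 at 4 h and 3844 to 14504 in vehicle livers. It was above the vehicle median in each 4 h liver and climbed 2.61-fold (adjusted p = 0.0105, 0.0529 without replicate 3 at 4 h). Cyp2b15, whose probe set may share targets with Cyp2b2, rose 2.48-fold. Cyp3a18, a male-predominant P450 of the rat, moved the other way, with 2296, 7786 and 1421 at 24 h, against 19268, 16322 and 14063 at 4 h. All 24 h livers were below all 4 h livers, a 5.58-fold fall (adjusted p = 0.00156, 0.0526 with scan day as a block). Of 15 glutathione S-transferases 1 rose and 2 fell, and of 11 NRF2 target genes 0 were called by limma (2 at an unadjusted p under 0.05). Gss, glutathione synthetase of the NRF2 list, rose by 1.22 on a probe set that was not its brightest.

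The list of the growth hormone axis and male-specific liver genes, many of which depend on pulses of growth hormone, had a median difference of -0.54. Of 23 tested genes 7 fell and 0 rose, with 3 called lower under the scan day block and 5 to 6 when 1 array was left out. Hao2, a peroxisomal hydroxyacid oxidase, had 3969, 4741 and 3053 at 24 h, against 14879, 13242 and 11348 at 4 h. Vehicle livers had 15193 to 23292, so it was slightly under that range at 4 h and far under it at 24 h (3.39-fold fall, adjusted p = 4.39e-07). Cyp2c11, the main male-specific P450 of rat liver, had 14329, 16315 and 12914 at 24 h, against 37766, 30845 and 35690 at 4 h. It fell 2.40-fold (adjusted p = 0.00429), with 3 of 3 probe sets called.

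Car3, a carbonic anhydrase abundant in male rat liver, had 1716, 2727 and 1207 at 24 h, against 7116, 8092 and 5119 at 4 h (3.74-fold fall, adjusted p = 0.00266). It lost its call with scan day as a block (0.0693). Hsd3b5, which reduces steroids in male liver, had 2041, 2400 and 1060 at 24 h, against 5339, 4096 and 3672 at 4 h and 7201 to 13968 in vehicle livers. It was under every vehicle liver at both times, and its 2.49-fold fall lost its call without replicate 3 at 24 h (0.109). Cyp2a2, the growth hormone receptor Ghr and the deiodinase Dio1 fell by 0.90, 0.54 and 0.79. Cyp2c12, the female-specific P450, had a difference of 0.29, not called.

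Bile acid synthesis was represented by the largest fall. Cyp7a1, its rate-limiting enzyme, had 802, 124 and 76.3 at 24 h, against 1507, 8341 and 1546 at 4 h and 2312 to 8929 in vehicle livers. All 24 h livers were below all 4 h livers, but replicate 2 at 4 h lay within the vehicle range while the other 4 h livers lay under it. The fall was at least 10.3-fold (adjusted p = 0.00701), since 2 of the 24 h signals were under the floor. It missed the threshold without replicate 2 at 4 h (0.0557) and with scan day as a block (0.0806). Of the 17 tested genes of bile acid synthesis and transport 3 fell and 0 rose. Slco1a4, an uptake transporter of organic anions, had 2585, 1987 and 1292 at 24 h, against 5115, 6636 and 3607 at 4 h (2.64-fold fall, adjusted p = 0.000978). Slc10a1, the bile acid uptake carrier of hepatocytes, fell by 0.81 (adjusted p = 0.000676). Abcb11, the bile salt export pump, had -0.38 and Cyp7b1 -0.07, neither called.

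Enzymes of nitrogen, amino acid and sugar metabolism moved in both directions. Oat, ornithine aminotransferase, had 1336, 1462 and 3184 at 24 h, against 8965, 7571 and 5025 at 4 h (3.80-fold fall, adjusted p = 0.000752). The times did not overlap, and the call held with scan day as a block and without each array. Glul, glutamine synthetase, fell 2.07-fold, and Otc and Kmo fell by 0.61 and 0.66. Against these 4 falls, 2 of the 24 listed genes rose. Hdc, histidine decarboxylase, had 1016, 1095 and 558 at 24 h, against 36.0, 36.9 and 78.4 at 4 h. All 3 of its 4 h signals were under the floor, as vehicle signals were at the median (58.4), and it rose at least 5.69-fold (adjusted p = 0.000561). Agxt, which detoxifies glyoxylate, rose by 0.70.

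Pklr, the liver pyruvate kinase, had 394, 218 and 413 at 24 h, against 1656, 521 and 858 at 4 h and 1686 to 2859 in vehicle livers. It was below every vehicle liver at both times and fell 2.76-fold (adjusted p = 0.00368). With Slc37a4, the glucose-6-phosphate carrier, and Gckr, the glucokinase regulator, it made 3 falls and 0 rises among 19 genes of glucose metabolism. In the methionine list 3 of 12 fell (Bhmt, Cth and Gamt), of which 1 remained with scan day as a block. Of 13 cholesterol synthesis genes 0 were called by limma on their brightest probe sets (4 at an unadjusted p under 0.05), with a median of -0.40. On other probe sets Cyp51, a sterol demethylase, fell by 0.78 and 0.90, and Fdft1, squalene synthase, fell by 1.00. Likewise Pgam1 and Eno1 of glycolysis rose by 1.03 and 0.78 on probe sets other than their brightest, and Cdo1 of the methionine list fell by 0.77. In the lipogenesis list 1 of 10, Dgat1, rose, and Me1, the malic enzyme, rose by 0.95 on a probe set that was not its brightest. Of 13 genes of glucuronidation and sulphation 1 rose (Sult2a6, a sulphotransferase) and 2 fell.

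Other large falls were Errfi1, a feedback inhibitor of EGF receptor signalling, Sdc4, a cell-surface proteoglycan, and Slc6a6, the taurine transporter. Sdc4 had 5677, 6554 and 4585 at 24 h, against 9364, 25332 and 16401 at 4 h and 9556 to 18621 in vehicle livers. Its 4 h livers straddled the vehicle range, and it fell 2.84-fold (adjusted p = 0.00136). Errfi1 had 714, 349 and 366 at 24 h, against 1360, 2008 and 1108 at 4 h (3.21-fold fall, adjusted p = 0.000446, 1 of 3 probe sets called). Slc6a6 had 478, 490 and 572 at 24 h, against 1480, 1201 and 1483 at 4 h (2.70-fold fall, adjusted p = 0.00505, 0.0502 with scan day as a block).

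**Figure D3:**
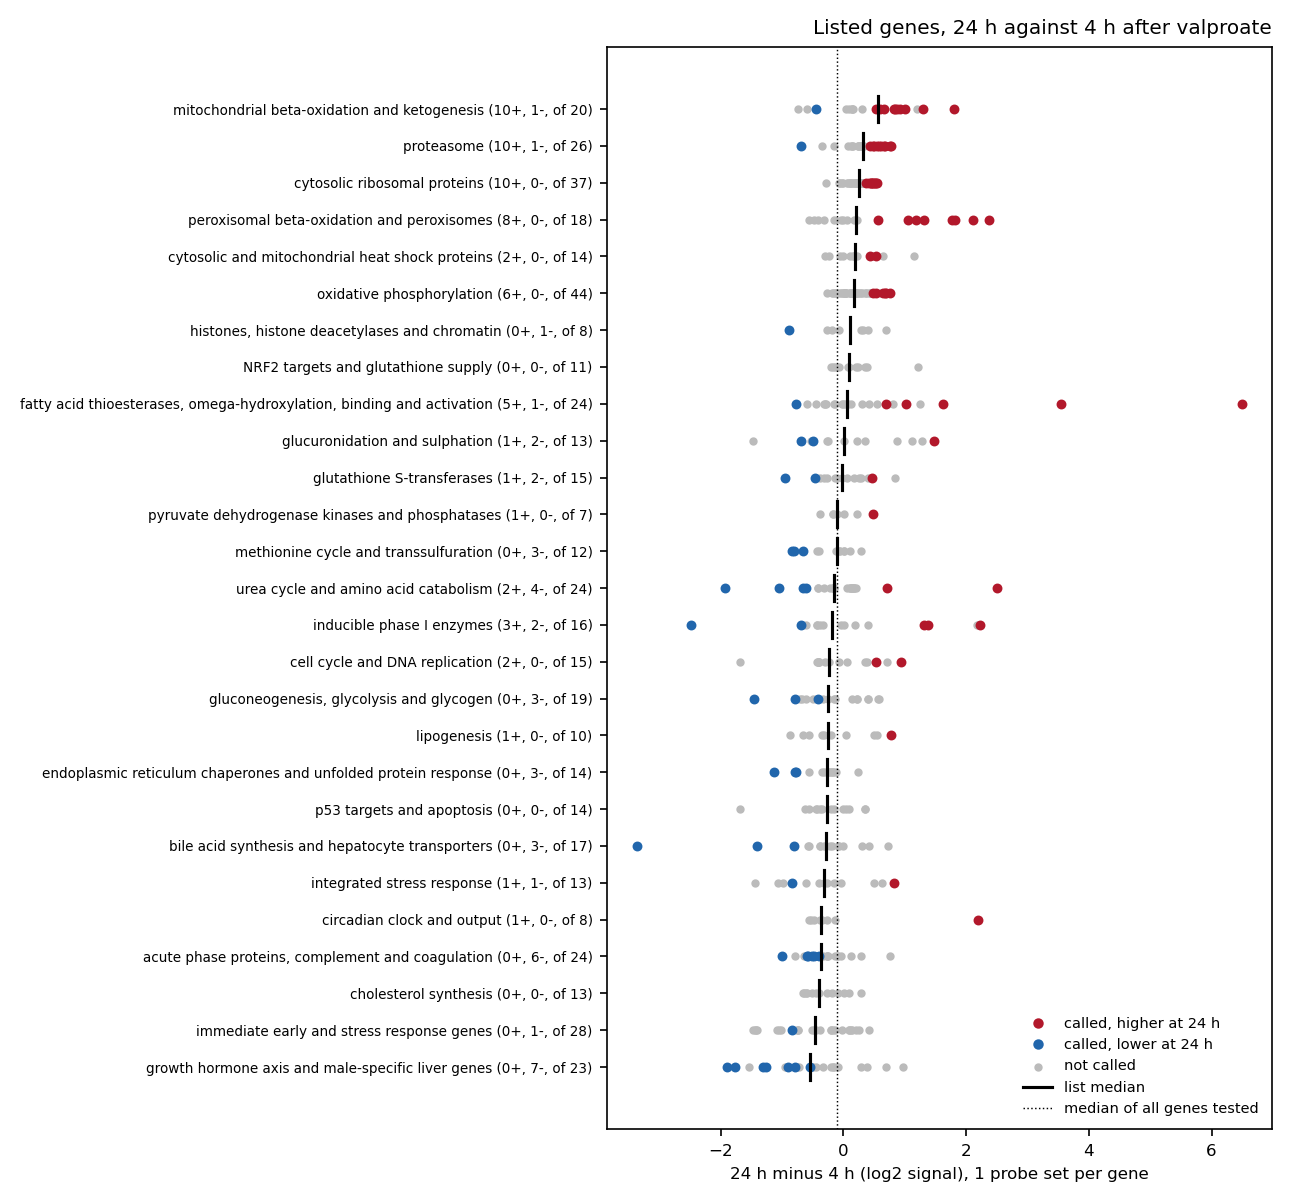
Difference of 24 h minus 4 h (x axis, log2 signal) for every tested gene of 27 lists, each point 1 gene. Red points rose, blue points fell and grey points were not called, the black bar is the list median and the dotted line the median of all genes. The label gives the numbers called higher (+) and lower (-) of those tested. The mitochondrial list has the highest median (0.56).

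Several transcripts of plasma proteins made by hepatocytes were lower. Of 24 acute phase, complement and coagulation genes 6 fell and 0 rose, with a median of -0.37. C9, a complement protein, had 8737, 8366 and 9557 at 24 h, against 16391, 16696 and 20294 at 4 h (2.00-fold fall, adjusted p = 3.76e-06). The times were clearly separate, and 2 of the 4 h livers were already under the vehicle range of 19303 to 24673. The fibrinogen chains Fga and Fgb fell by 0.48 and 0.52, and Serpina3n, Cp and F10 by 0.40 to 0.59. With arrays centred on their medians 3 of the 24 were lower, and after quantile normalization the list median was -0.17. The median of the hepatocyte markers moved in the same direction (-0.36, and -0.13 after quantile normalization), and their part in these falls was not tested.

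Some genes of the proteasome, the ribosome and the respiratory chain rose, and their counts depended on single arrays. Of 26 proteasome genes 10 rose and 1 fell (median 0.32), of 37 cytosolic ribosomal protein genes 10 rose and 0 fell (0.26), and of 44 oxidative phosphorylation genes 6 rose and 0 fell (0.17). Cox6c, a subunit of complex IV in the last list, fell by 0.92 on a probe set that was not its brightest. Ndufb5, Ndufb6 and Cox8a of that list rose by 0.82, 0.43 and 0.44 on such probe sets, and the ribosomal Rps6 by 0.54. Psmb5, a catalytic proteasome subunit, had 12460, 14527 and 16730 at 24 h, against 10974, 9365 and 9418 at 4 h. Rpl11, a large-subunit protein, had 18932, 19997 and 20420 at 24 h, against 13124, 14446 and 16200 at 4 h. Ndufs4, a complex I subunit, had 3313, 3722 and 3692 at 24 h, against 2017, 2059 and 2270 at 4 h. In each of these 3 genes the times did not overlap, with rises of 0.55, 0.44 and 0.76 on the log2 scale. With scan day as a block the lists kept 1, 0 and 2 genes called higher, and without replicate 3 at 24 h they had 0, 2 and 3.

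Several stress response genes were higher in 1 rat at 4 h than in the other treated rats. Atf3, a stress-induced transcription factor, had 514, 411 and 296 at 24 h, against 455, 7561 and 359 at 4 h. Ddit3 (CHOP) had 854, 1084 and 261 at 24 h, against 603, 5253 and 586 at 4 h. In both genes replicate 2 at 4 h was far above the other 2 rats of its group, which lay among the 24 h rats, and neither difference was called (adjusted p = 0.187 and 0.343). The same rat was highest of the 6 for Trib3, Nupr1, Ppp1r15a, Jun, Egr1, Nr4a1, Myc, Cited2, Zfp36 and Gadd45a. Being highest of the 6 does not place a signal above vehicle livers. On 1 probe set of Egr1 this rat had 6483, inside the vehicle range of 2595 to 11361, and the other treated livers lay under that range. The 13 tested genes of the integrated stress response summed to 38215, 32643 and 27097 at 24 h, against 35176, 67834 and 34960 at 4 h. Phgdh, a serine synthesis enzyme, rose by 0.83 and Cth fell by 0.84 in this list. The 28 immediate early genes summed to 57427, 53909 and 53957 at 24 h, against 63315, 136111 and 63293 at 4 h. Of these 1, Zfp36l1, an mRNA-decay factor, fell (adjusted p = 0.0291), and it lost its call without replicate 2 at 4 h (0.177).

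**Figure D4:**
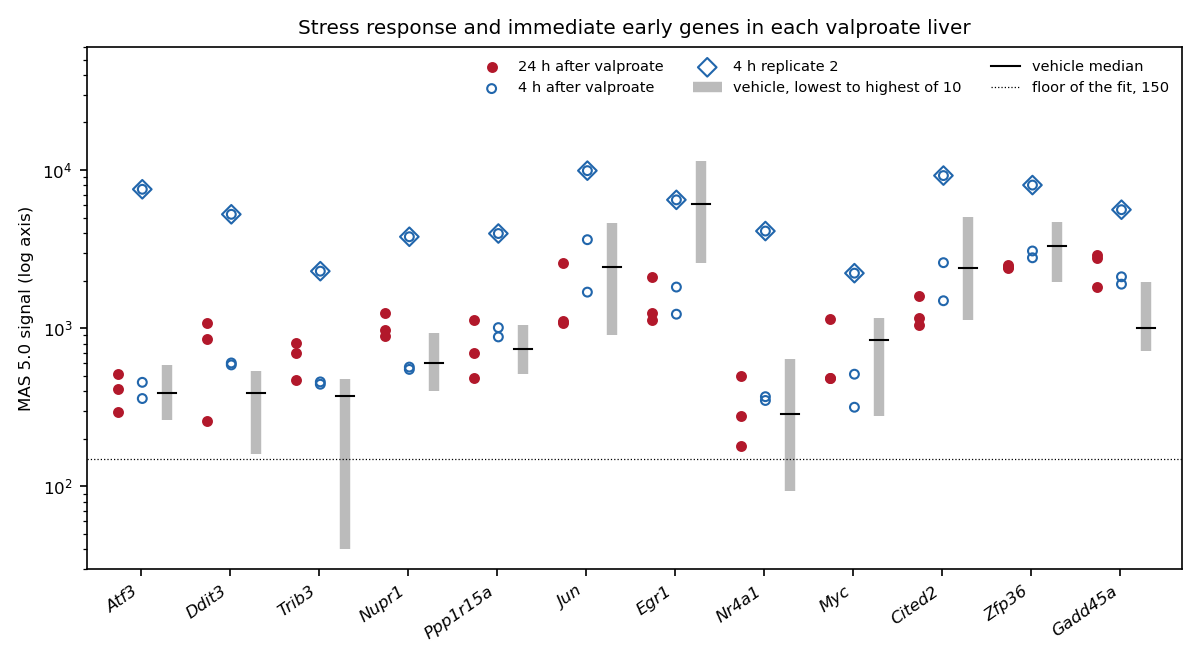
MAS 5.0 signal (log axis) of 12 stress response and immediate early genes, chosen after their values were seen. Filled points are livers 24 h after valproate and open points livers 4 h after it, with replicate 2 of the 4 h group ringed by a diamond, beside the span and median of 10 vehicle livers (grey bar, black line). For each of these genes the diamond is the highest of the 6 treated livers.

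Of the 24 probe sets back from a peak at 4 h, Dnajb9 is on a gene list. Dnajb9, a co-chaperone of the endoplasmic reticulum, had 932, 1168 and 1060 at 24 h, against 1848, 2864 and 2269 at 4 h. Vehicle livers ranged from 440 to 2420 (median 1091), so the 4 h signals of 1848 and 2269 lay inside their range. Dnajb9 fell by 1.13 on the log2 scale (adjusted p = 0.0406). Hyou1 and Ero1b of the same list also fell, by 0.77 and 0.80, so that 3 of 14 chaperone genes were lower. None of the 3 was called with scan day as a block. Other examples, chosen after their values were seen, back near the vehicle level were Rnmt, an mRNA cap methyltransferase, with a difference of -0.96, Shb, a signalling adaptor, with -0.87, and Tbp, the TATA-box binding protein, with -0.84. Each lost its call with scan day as a block (adjusted p = 0.0628, 0.107 and 0.185).

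Histone deacetylases are a known target of valproate. Of 8 tested chromatin genes 1, Hdac2, fell, with 870, 978 and 637 at 24 h, against 1403, 1189 and 2070 at 4 h (adjusted p = 0.0204, 0.113 without replicate 3 at 24 h). In the cell cycle list 2 of 15 rose, Ccnd1 and Cdk4, which act together at the start of the cycle. The list had 0 genes called higher with scan day as a block. It also had 0 without replicate 2 at 4 h and 0 without replicate 3 at 24 h. Ccnd1 had 4710, 4143 and 4220 at 24 h, against 2755, 1995 and 2152 at 4 h and 616 to 1628 in vehicle livers. It was thus above all vehicle livers at both times. The inhibitor Cdkn1a had 111, 115 and 167 at 24 h, against 419, 599 and 496 at 4 h, a log2 difference of -1.68 that missed the threshold (adjusted p = 0.0599). Its size is a lower bound, since 2 of the 24 h signals were under the floor. Of 14 genes of the p53 list 0 were called by limma (2 at an unadjusted p under 0.05). Of 14 heat shock genes 2 rose on their brightest probe sets, the mitochondrial chaperonins Hspd1 and Hspe1. On other probe sets the cytosolic chaperone Hsp90ab1 rose by 0.57 and 0.85, the small heat shock protein Hspb1 by 1.59 and the co-chaperone Fkbp4 by 0.67.

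Among 8 circadian genes only Dbp, a clock output factor, was called. It had 1226, 583 and 501 at 24 h, against 107, 107 and 165 at 4 h (at least 4.59-fold higher, adjusted p = 0.00863, 0.0513 without replicate 1 at 24 h). The vehicle livers ranged from 54.8 to 1173 with a median of 80.1, so 5 of the 6 treated livers lay inside their span. Nr1d1, Nr1d2, Bmal1, Bhlhe40, Tef, Hlf and Csnk1d had differences of -0.56 to -0.14, none called. The hour of day at which livers were taken is not in the labels, so time after the dose and hour of day cannot be told apart.

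Of 11 Kupffer cell and leukocyte markers 0 were called by limma (2 at an unadjusted p under 0.05), and their summed signals were 16821 to 24236 at 24 h and 16212 to 19406 at 4 h. Of 12 stellate cell and matrix markers 1 fell (Col1a2), with a median of -0.43 and 1 positive difference. They summed to 28571 to 32234 at 24 h and 35547 to 42194 at 4 h. Col1a1 fell by 0.69 on a probe set that was not its brightest. Of 6 endothelial markers 1 fell (Nos3), with a median of -0.36 and sums of 5770 to 6954 at 24 h and 7226 to 10129 at 4 h. On brightest probe sets neither list had a call with scan day as a block. Of 3 cholangiocyte markers 0 were called (0 at an unadjusted p under 0.05). The 5 erythroid and blood markers summed to 22132 to 28253 at 24 h and 38916 to 40715 at 4 h, with 1 called lower (Hbb-b1) and a median of -0.68. The part of blood content in the other falls was not tested.

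The change between 4 h and 24 h was also set against the same change after DEHP and after clofibrate, both activators of PPARα in the rat, in a fit of all 76 individual arrays. These compounds differ from valproate in dose, and clofibrate in vehicle too. The difference between the changes was called for 25 of 4503 probe sets (0.555%) against DEHP and 36 (0.799%) against clofibrate, with 442 and 604 at an unadjusted p under 0.05. Acot1 changed by at least 6.49 after VPA, where 1 signal at 4 h was under the floor, by 5.95 after DEHP and by 5.62 after clofibrate on the log2 scale. Ehhadh changed by 1.82, 1.90 and 1.56 in the same order. On its brighter probe set Acot2 changed by 3.54, 2.13 and 0.57, without a called difference (adjusted p = 0.686 and 0.138). Its change after VPA was 2.45 on the other probe set. A p that misses the threshold does not show equal changes.

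Igf1, the growth factor secreted by liver under growth hormone, had the largest positive called difference from DEHP. On 1 of its probe sets it had 7415, 4809 and 5086 at 24 h, against 3833, 1085 and 4921 at 4 h after VPA, and 1162, 3481 and 966 at 24 h, against 5504, 11702 and 11730 at 4 h after DEHP. The difference of the changes was 3.58 ± 0.69 (adjusted p = 0.0024). Igf1 had 5 tested probe sets, and this was the only one called. The other 4 had differences of 1.15 to 1.53 (adjusted p = 0.147 to 0.321), with changes of -0.17 to 0.13 after VPA. Trib3 and Ddit3, both of the integrated stress response, had negative differences. Ddit3 had 461, 3192 and 7423 at 24 h, against 563, 157 and 582 at 4 h after DEHP, and its difference was -3.56 ± 0.89 (adjusted p = 0.0456). With scan day as a block 3 probe sets were called against DEHP and 5 against clofibrate. The 3 were those of Cd81, Ptgr1 and Bex3 (adjusted p = 0.000314, 0.00207 and 0.015). Igf1, Trib3 and Ddit3 lost their calls (0.176, 0.362 and 0.362). Cd81 changed by -0.02 after VPA and -1.33 after DEHP, and Bex3 by 1.51 and -0.32.

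Against clofibrate, Cbr1 had 205, 194 and 53.2 at 24 h and 330, 443 and 420 at 4 h, opposite to its rise after VPA, and the difference was at least 2.87 (± 0.57, adjusted p = 0.00288), since 1 clofibrate signal at 24 h was under the floor. Bex3 rose after VPA, with 2089, 2595 and 2610 at 24 h, against 749, 1067 and 774 at 4 h, and had 436, 539 and 456 at 24 h, against 775, 633 and 416 at 4 h after clofibrate. Cpt1b, the muscle form of the carnitine palmitoyltransferase, had 890, 707 and 571 at 24 h, against 253, 54.9 and 186 at 4 h after VPA. After clofibrate it had 6064, 3225 and 2980 at 24 h, against 38.1, 97.6 and 241 at 4 h, and the fitted difference was -2.58 ± 0.50 (adjusted p = 0.00288). As 1 signal at 4 h after VPA and 2 after clofibrate were under the floor, both changes are lower bounds and the difference has no exact size. Another probe set of Cpt1b changed by 0.20 after VPA and was not called. Bhmt, of the methionine cycle, changed by -0.66 after VPA and -2.46 after clofibrate, and the urea cycle enzyme Ass1 by -0.16 and -1.87, with differences of 1.80 and 1.71. Slco1a4 changed by -1.40 after VPA and 0.72 after clofibrate, a difference of -2.12 ± 0.48 (adjusted p = 0.012).

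**Figure D5:**
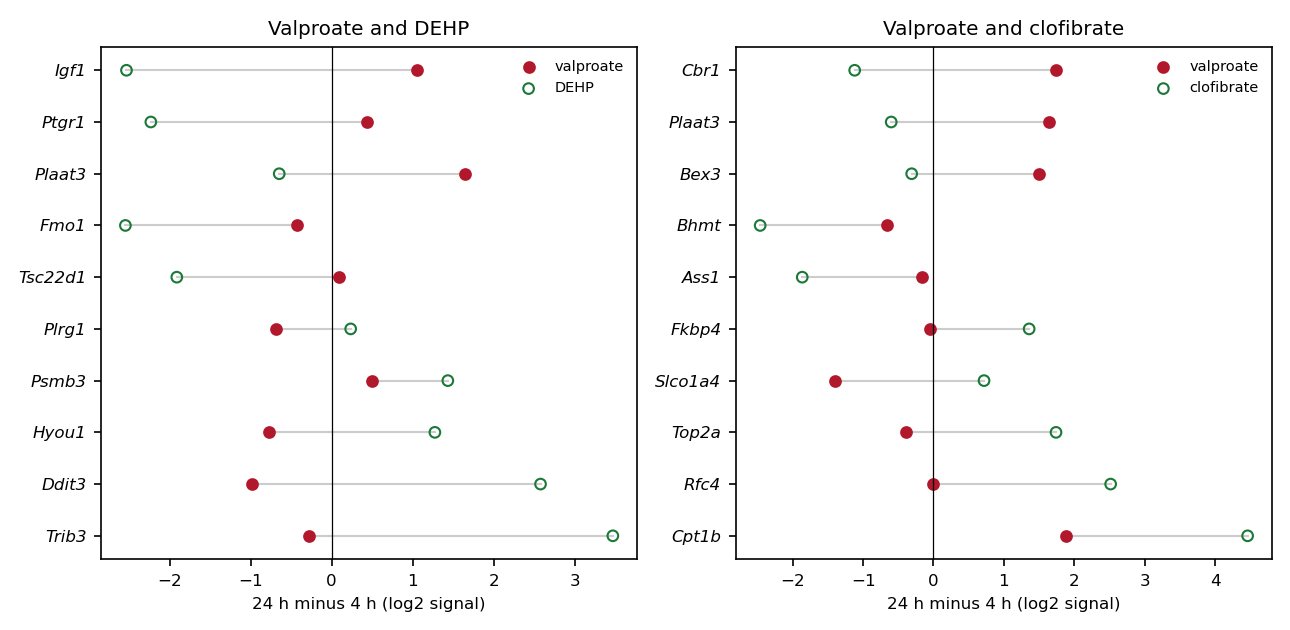
Change of 24 h minus 4 h (x axis, log2 signal) after valproate (filled points) and after DEHP (left panel) or clofibrate (right panel, open points) for the 5 genes per direction with the largest called differences. Trib3 changed by -0.27 after valproate and at least 3.47 after DEHP. Cpt1b changed by at least 1.89 after valproate and at least 4.46 after clofibrate, with signals under the floor at 4 h.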

How the data were processed

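Liver RNA from 1 rat per array was measured on Affymetrix rat arrays, which carry 8799 probe sets including 59 controls. The deposited intensity values are MAS 5.0 signals, which the authors scaled to a target of 1500 on each array, per the labels; about 10 µg of total RNA was labelled. Probe sets were named through the platform annotation, which gave 7018 of them 1 symbol, 308 several and 1473 none, and 6994 were found in RefSeq.

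Signals under 150 were set to 150 and taken to log2, and probe sets averaging at least 500 in 1 or more groups were kept. Limma 3.58.1 in R 4.3.3 (lmFit, eBayes with an intensity trend) was fitted to the 24 individual arrays of the VPA set. These include the treated and vehicle livers at 48 h and 168 h, and all groups share 1 estimate of the spread. The differences between compounds were fitted to all 76 individual arrays. Adjusted p-values are Benjamini-Hochberg over all probe sets tested. For a gene list, the probe set with the highest mean over both times was taken per gene. A fold is given as a lower bound where any signal of the lower group lay under the floor. The script was tested on simulated data.

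The text names the 12 largest rises and 12 largest falls by gene among called probe sets with 1 symbol, no overlap between the times and a mean of at least 1000 in the higher group. It also names up to 5 genes per direction of each difference between compounds, and all measured circadian and pyruvate dehydrogenase genes. For the lists the rule was up to 3 called members per direction by smallest adjusted p. Some of those, such as Gsta4, Ugdh and Psme4, are only counted in the text. Other named genes are examples. The members and lists were chosen with earlier results of these data known. The labels do not say that replicates are independent of shared handling, so p-values measure the spread between these rats.

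Alternatives were other floors, filters, scalings and variance priors, array weights, the 3'/5' ratio, scan day and replicate number as blocks, other sets of arrays, and leaving out each array. Replicate numbers did not pair the rats, since same-numbered deviations had correlations of 0.069, 0.160 and 0.029. Scan day was read from the scanner's records. Pooled arrays entered no test.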

Additional observations from a re-analysis of the deposited data

Results flagged for a closer look

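The changes between 4 h and 24 h after VPA differed from those after DEHP or clofibrate for the following genes, each picked out by a test of the difference itself (limma, all 76 individual arrays). Values are the log2 change after VPA minus that after the other compound.

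Against DEHP the positive differences were 3.58 for Igf1, 2.66 for Ptgr1, a prostaglandin reductase, 2.29 for Plaat3, 2.12 for Fmo1 and 2.00 for Tsc22d1. Ptgr1 had 1691, 1868 and 2489 at 24 h, against 1255, 1556 and 1634 at 4 h after VPA, and 91.5, 214 and 659 at 24 h, against 1070, 1284 and 1592 at 4 h after DEHP. The negative differences were -3.74 for Trib3, -3.56 for Ddit3, -2.05 for Hyou1, -0.93 for Psmb3, a proteasome subunit, and -0.92 for Plrg1, a splicing factor. The Igf1 value rests on 1 of 5 probe sets, and the other 4 had 1.15 to 1.53, none called. Of the DEHP signals 1 was under the floor for each of Ptgr1, Fmo1 and Trib3, so the sizes of their differences are lower bounds. For Trib3 and Ddit3 replicate 2 at 4 h after VPA was far above the other 2 rats.

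Against clofibrate the positive differences were 2.87 for Cbr1, 2.25 for Plaat3, 1.82 for Bex3, 1.80 for Bhmt and 1.71 for Ass1. The negative differences were -2.58 for Cpt1b, -2.52 for Rfc4, a DNA replication factor, -2.13 for Top2a, a topoisomerase, -2.12 for Slco1a4 and -1.41 for Fkbp4, a co-chaperone. The size for Cbr1 is a lower bound, since 1 clofibrate signal at 24 h was under the floor. For Cpt1b signals at 4 h were under the floor after both compounds, so its difference has no exact size. All 6 VPA signals of Rfc4 were under the floor, so its VPA change has no measured size.

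With scan day as a block Ptgr1 against DEHP (adjusted p = 0.00207) and Cbr1 and Bex3 against clofibrate (0.0417 and 0.0314) kept their calls, and the other 17 differences lost them. Igf1, Ptgr1, Cbr1, Bex3 and Cpt1b were called whichever single array was left out.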

How the results depend on the processing

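The 505 probe sets called between 24 h and 4 h became 778 with array weights, 208 with scan day as a block, 192 with only the 6 arrays compared, 244 in the fit of all 76 arrays and 64 within the shared scan day, and 243 to 586 when 1 array was left out. Other floors, filters, scalings and variance priors gave counts within 1.5 times of it; centring arrays on their median gave 292 higher and 143 lower. A scan month block, added after seeing the data, gave 351. With replicate number as a block 448 were called; the numbers did not pair the rats. The count against DEHP (25) became 12 and 42 with floors of 50 and 300, 45 without a filter, 15 with a mean of at least 1000, 9 after centring, 120 with array weights, 51 with the 3'/5' ratio, 16 with the replicate block, 3 with scan day as a block, 7 with only the arrays compared and 7 to 29 when 1 array was left out. The count against clofibrate (36) became 63 with a floor of 300, 244 with array weights, 5 with scan day as a block, 0 with only the arrays compared and 11 to 72 when 1 array was left out; the replicate block gave 35. Taking 2-fold as near the vehicle level left 93 newly higher, 19 still rising, 51 newly lower and 14 back from a peak. Of the 92 named genes 48 kept their side of the threshold and sign with scan day as a block, 41 lost the call and 3 changed sign, and of the 24 largest changes 18 kept their call. Sign changes were limited to uncalled genes: Pdk1 was 0.0069 after quantile normalization and -0.36 to 0.011 when 1 array was left out; Pdk2 was -0.065 after quantile normalization, -0.23 within the scan day and -0.079 to 0.13; Pdk4 was 0.10 with array weights, 0.19 with scan day and 0.038 with scan month as a block, and -0.48 to 0.11; Nr1d1 was 0.20 with scan day as a block, 0.16 within the day and -0.71 to 0.13; Nr1d2 was 0.023, 0.46 and 0.14 with quantile normalization, scan day and scan month, and -0.53 to 0.31. The cause was not tested. Signals at or under the floor have no order, and 3 arrays a group limit every comparison.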

Other observations

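Arrays of pooled RNA existed for both times and entered no test. Of the 505 called probe sets 486 had the same sign in the pooled 24 h array minus the pooled 4 h array, including all 24 of the largest changes. Per the labels the pools were made from RNA of the individual samples, so these values are no separate evidence.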
